A study of Mus musculus with 6 samples.

Results

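The genes described here are 32 genes of glycolysis and of the transcriptional response to low oxygen. They were picked by gene symbol from a deposited table of 55573 gene entries, by a rule that names no measured value but was written with earlier results of these data known, and all 32 were found and passed the filter on low counts. By role they are 17 core enzymes, 4 glucose and lactate transporters, 3 genes of the PFK2 enzymes that set the level of a glycolytic activator, 4 genes of the oxygen-sensing switch (Hif1a and the prolyl hydroxylases Egln1, Egln2 and Egln3) and 4 other hypoxia-responsive genes. The samples were 3 Abcc4-/- and 3 WT mouse samples that carry the cell type label megakaryocytes, the large marrow cells that shed platelets, and their titles carry the letters BMCD41, which the labels do not explain. Abcc4 encodes a membrane pump that exports cyclic nucleotides and drug metabolites. Poly(A)-selected, strand-specific libraries were sequenced in pairs of reads, and the labels give no treatment, age or strain background, nor do they say which part of the Abcc4 gene is lost. The purpose named in the series title is the effect of Abcc4 on megakaryocyte formation and on sensitivity to 6-mercaptopurine.

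Glycolysis splits glucose into pyruvate in the cytosol and yields ATP without oxygen, and lactate dehydrogenase then turns pyruvate into lactate, which leaves the cell through monocarboxylate carriers. Platelets and neutrophils are both known for a strong use of this route. In normal oxygen the prolyl hydroxylases mark the transcription factor subunit HIF-1alpha for destruction; in low oxygen it persists, pairs with ARNT and binds DNA at sites with the core ACGTG or GCGTG, raising many genes of glycolysis along with the hydroxylase gene Egln3, the kinase gene Pdk1 and the mitophagy gene Bnip3.

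Changes in these genes were small. In Abcc4-/- against WT samples, 5 of the 32 genes were higher (Pfkfb4, Slc16a1, Ldha, Pgk1 and Slc2a3), 3 were lower (Ldhb, Egln3 and Ndrg1) and 24 did not pass the test, an edgeR quasi-likelihood test with Benjamini-Hochberg adjustment over all genes tested and a threshold of 0.05. Over all 16493 genes tested 17.3% were called, 8.61% as higher and 8.68% as lower, and the corresponding shares of the 32 genes were 25.0%, 15.6% and 9.38%. The median log2 fold change of the 32 genes was 0.04, against 0.000909 over all genes tested. Of the 32, 23 were above 0, against 50.2% of all genes tested. The 8 called genes had log2 fold changes between -0.23 and 0.32, which are differences of 1.13-fold to 1.25-fold in either direction. Over all called genes the median size of the log2 fold change was 0.41, but those genes were not matched to the 8 for expression level. In CPM (counts scaled to library size, here by the TMM method), the 3 Abcc4-/- samples all lay above the 3 WT samples for 9 of the 32 genes and all below for 6; of all genes tested, 36.8% were apart in this way, 18.4% above and 18.3% below. Leaving out 1 sample changed the counts to between 2 and 4 higher and between 0 and 3 lower, and without WT replicate 3 they were 3 higher and 1 lower. On the log2(TPM + 1) scale, tested with limma, 1 of the 32 genes was higher (Ldha) and 3 were lower (Ldhb, Egln3 and Ndrg1). There the median of the 32 was -0.04, against -0.06 over all genes tested, and 11 of the 32 were above 0. Of all calls on that scale, 28.4% were in the higher direction, against 49.8% in edgeR. With each library centred on its median, the median of the 32 was 0.05, against 0.03 over all genes tested, and 22 were above 0. In bulk samples, fewer cells of a type and less RNA per cell cannot be told apart.

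**Figure D1:**
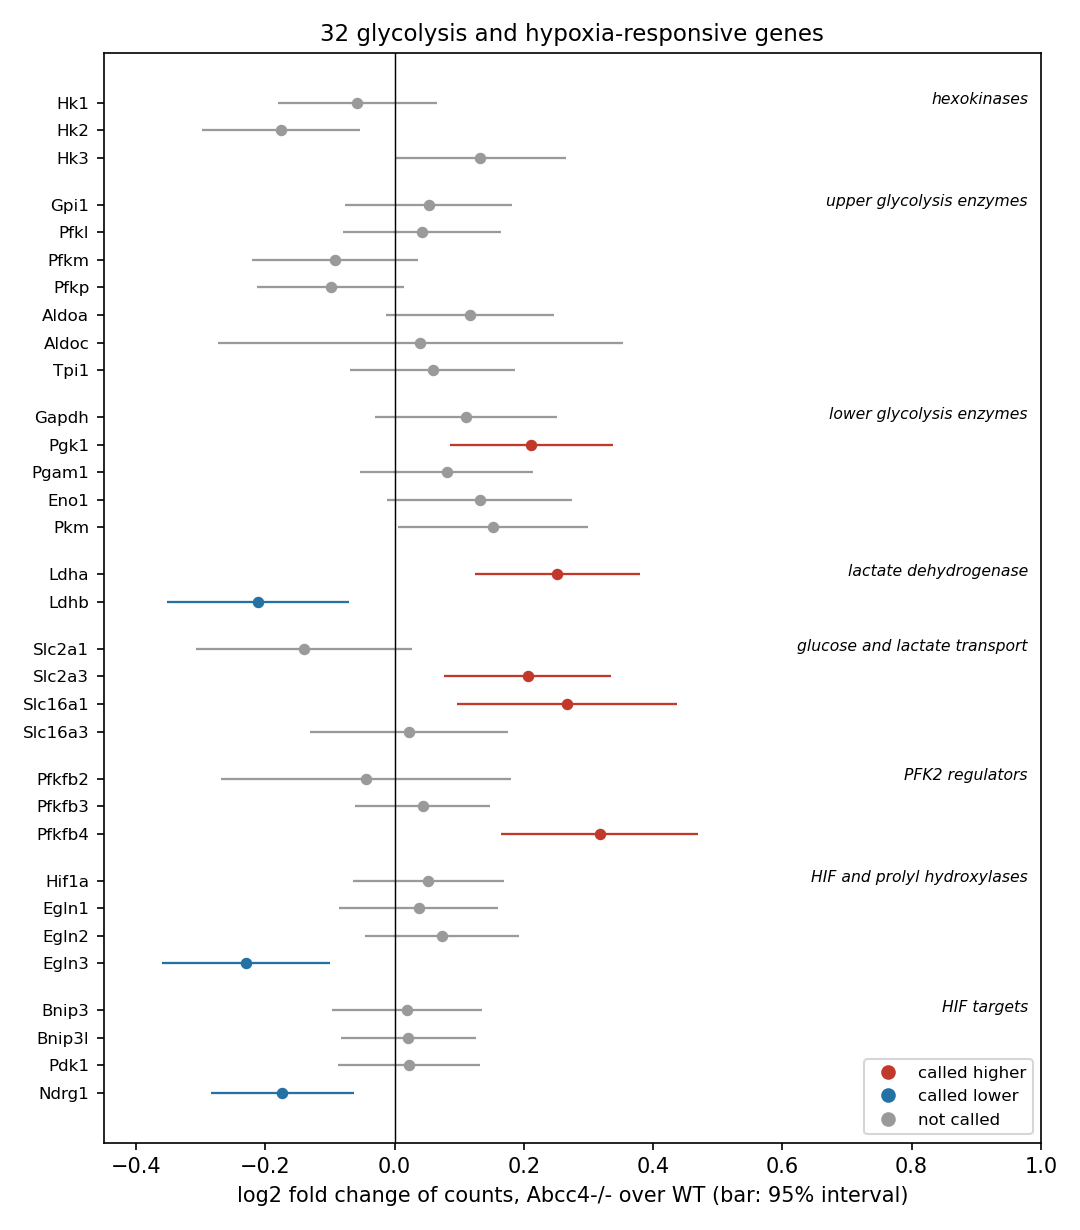
Log2 fold change of each of the 32 genes, Abcc4-/- over WT, on the horizontal axis, with its 95% interval as a bar, grouped by role from top to bottom. The 8 called genes lie between -0.23 and 0.32, and the intervals of most other genes include 0.

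Several properties of the samples moved with genotype beside these values. Total counts were 67009925 to 99294493 per Abcc4-/- sample and 50440239 to 55123512 per WT sample. Abcc4 itself had 60.1, 60.5 and 62.3 CPM in the Abcc4-/- samples, against 74.2, 71.8 and 75.7 CPM in the WT samples, which did not overlap (edgeR log2 fold change -0.28, adjusted p = 0.0026). Of 14 megakaryocyte and platelet markers, 1 was higher and 8 were lower in Abcc4-/- samples, and their summed level was 313 to 355 CPM in Abcc4-/- and 394 to 464 CPM in WT samples. Within this list the levels ranged widely: Itga2b, which encodes CD41, averaged 96.1 ± 13.8 CPM in Abcc4-/- and 158 ± 17.3 CPM in WT samples, Itgb3, its integrin partner, 72.2 ± 3.50 CPM in Abcc4-/- and 70.0 ± 4.21 CPM in WT samples, Pf4, a platelet chemokine, 16.8 ± 1.37 CPM in Abcc4-/- and 30.5 ± 5.67 CPM in WT samples, and Gp6, the platelet collagen receptor, 0.152 ± 0.0360 CPM in Abcc4-/- and 0.216 ± 0.105 CPM in WT samples (SD, n = 3 each). Of 14 neutrophil markers, 10 were higher and 1 was lower, with a sum of 39718 to 42270 CPM in Abcc4-/- and 22726 to 29370 CPM in WT samples, so the neutrophil sum was far above the platelet sum in every sample, although the labels name megakaryocytes. The lower marker was Mpo (edgeR log2 fold change -0.25, adjusted p = 0.0350). Elane (-0.18) and Prtn3 (-0.02) were negative too but not called, and the other 11 neutrophil markers had positive values. All 10 B lymphoid and 10 T and NK cell markers were tested, and 7 of each list were higher, with none lower. Of 10 monocyte and macrophage, 8 mast cell and basophil and 6 eosinophil markers, 3 of each list were lower and none higher. Of 11 erythroid markers 3 were higher and none lower, but 6 had negative log2 fold changes and the median was -0.02. Their sums overlapped, at 602 to 843 CPM in Abcc4-/- and 730 to 797 CPM in WT samples. The sums of the T and NK cell list overlapped too (131.6 to 149.5 CPM in Abcc4-/- and 104.7 to 132.3 CPM in WT samples), as did those of the mast cell and basophil list. All 15 immediate early genes, which respond within minutes to stimuli and to handling, were lower, with sums of 3693 to 4360 CPM in Abcc4-/- and 11036 to 11662 CPM in WT samples. No marker in these lists was at 0 counts in all 6 samples, and the part of these differences in the values of the glycolysis and hypoxia genes was not tested.

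The promoters of the 6 called genes with a promoter entry are shown so that the core letters of HIF binding sites can be seen beside the changes. Each is a RefSeq window of GRCm38.p6, 250 bases before to 50 after the annotated start, printed 5′ to 3′ on the gene's strand with every ACGTG or GCGTG, on either strand, in capitals (CACGTG reads the same on both strands and counts as a pair of matches). The windows lie at chr9:108991652-108991951, plus strand, for Pfkfb4, at chr3:104638414-104638713, plus strand, for Slc16a1, at chr7:46845554-46845853, plus strand, for the first Ldha start, at chrX:106186850-106187149, plus strand, for Pgk1, at chr6:142507908-142508207, minus strand, for Ldhb, and at chr12:54203825-54204124, minus strand, for Egln3.
Pfkfb4: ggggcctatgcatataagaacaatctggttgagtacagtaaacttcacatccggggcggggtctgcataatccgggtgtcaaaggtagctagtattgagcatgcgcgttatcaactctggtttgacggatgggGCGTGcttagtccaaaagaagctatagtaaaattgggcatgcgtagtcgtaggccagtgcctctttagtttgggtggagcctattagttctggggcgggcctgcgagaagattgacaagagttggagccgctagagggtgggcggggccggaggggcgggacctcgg
Slc16a1: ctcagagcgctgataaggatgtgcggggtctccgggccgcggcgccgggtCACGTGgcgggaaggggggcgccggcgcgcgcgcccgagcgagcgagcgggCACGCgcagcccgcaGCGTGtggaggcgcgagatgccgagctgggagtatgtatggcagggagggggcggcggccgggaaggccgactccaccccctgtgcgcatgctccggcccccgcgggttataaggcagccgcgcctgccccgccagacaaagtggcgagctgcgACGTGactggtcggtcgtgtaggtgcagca
Ldha: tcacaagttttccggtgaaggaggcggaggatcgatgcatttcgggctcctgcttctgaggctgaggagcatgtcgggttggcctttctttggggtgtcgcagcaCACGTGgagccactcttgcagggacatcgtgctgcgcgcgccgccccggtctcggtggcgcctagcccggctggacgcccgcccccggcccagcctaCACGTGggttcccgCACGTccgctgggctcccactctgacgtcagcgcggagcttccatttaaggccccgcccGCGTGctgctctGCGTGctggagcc
Pgk1: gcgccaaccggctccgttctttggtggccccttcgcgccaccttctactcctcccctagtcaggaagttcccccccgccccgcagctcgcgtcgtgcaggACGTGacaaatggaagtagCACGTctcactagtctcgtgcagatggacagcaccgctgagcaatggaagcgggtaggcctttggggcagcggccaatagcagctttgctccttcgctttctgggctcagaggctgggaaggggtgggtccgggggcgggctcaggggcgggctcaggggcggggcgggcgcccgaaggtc
Ldhb: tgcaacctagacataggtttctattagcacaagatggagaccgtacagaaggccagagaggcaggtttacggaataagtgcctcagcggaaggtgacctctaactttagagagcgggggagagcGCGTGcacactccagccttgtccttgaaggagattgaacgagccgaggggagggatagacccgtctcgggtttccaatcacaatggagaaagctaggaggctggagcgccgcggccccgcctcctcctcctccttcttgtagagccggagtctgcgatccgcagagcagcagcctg
Egln3: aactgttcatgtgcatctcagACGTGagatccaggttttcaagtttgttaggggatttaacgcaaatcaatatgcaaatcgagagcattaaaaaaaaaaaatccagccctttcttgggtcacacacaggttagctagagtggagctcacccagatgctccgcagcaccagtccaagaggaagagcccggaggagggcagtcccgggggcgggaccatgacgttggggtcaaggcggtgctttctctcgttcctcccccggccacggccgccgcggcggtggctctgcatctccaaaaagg
Ldha held 7 matches in this window, Slc16a1 5 and Pgk1 2, whereas Pfkfb4, Ldhb and Egln3 had 1 each. Genes that were higher and genes that were lower thus both carried the letters. Of the 29 genes with a promoter entry, 27 (93.1%) had at least 1 match, among them all 6 called genes with an entry and 21 of the 23 genes not called. Of all tested genes with an entry 65.2% had a match, and of all genes with an entry 46.7%. A gene was counted if any of its windows had a match. The 29 genes had 45 windows, and the 11154 tested genes with an entry had 14209. The median GC content of the windows was 61.3% for these genes, 60.0% for tested genes and 52.7% for all. CACGTG, the E-box that contains ACGTG, was found for 8 of the 29 genes (27.6%), against 11.3% of tested genes: Pfkm, Ldha, Slc16a1, Pfkfb2, Pfkfb3, Hif1a, Egln2 and Bnip3. The cAMP response element TGACGTCA, on either strand, was found for Ldha alone (3.45%), against 3.40% of tested genes. Slc2a3, Bnip3l and Ndrg1 had no entry.

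Glucose enters through the transporters encoded by Slc2a1 and Slc2a3. Slc2a3 (ENSMUSG00000003153.10, chr6:122727809-122801640, minus strand, GRCm38), the high-affinity transporter GLUT3, had 326, 333 and 364 CPM in the Abcc4-/- samples, against 309, 285 and 292 CPM in the WT samples. Every Abcc4-/- sample was above every WT sample, by a narrow margin. Slc2a3 rose 1.15-fold in Abcc4-/- samples (log2 fold change 0.21, 95% interval 0.08 to 0.34, adjusted p = 0.033). The call was lost without Abcc4-/- replicate 2 or 3 or WT replicate 2 or 3 (adjusted p 0.0605 to 0.140), and in TPM (which also divides by transcript length and so allows levels of different genes to be compared) the groups overlapped. Slc2a1, the widely expressed GLUT1, had 30.0, 28.0 and 35.0 CPM in the Abcc4-/- samples, against 34.8, 33.6 and 34.2 CPM in the WT samples, with overlapping groups and no call (log2 fold change -0.14, adjusted p = 0.238), although it was called lower without Abcc4-/- replicate 3 (adjusted p = 0.0323). Of the summed TPM of both transporters, Slc2a3 made up 88.0%, 89.1% and 87.5% in Abcc4-/- samples, against 85.8%, 85.2% and 85.4% in WT samples. The share was higher in all 3 Abcc4-/- samples, by 2.72 percentage points. An exact two-sided permutation test gave p = 0.1, the smallest that 3 against 3 samples allow, and 0.2 after adjustment over the 6 shares tested.

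Hexokinases trap glucose in the cell as glucose 6-phosphate, and none of the 3 was called by edgeR, with 2 at an unadjusted p below 0.05 and 1, Hk2, called lower by DESeq2. Hk3, the isoform typical of myeloid cells, was the most abundant with 163 ± 10.2 TPM in Abcc4-/- and 158 ± 6.44 TPM in WT samples (SD, n = 3 each). Hk1 averaged 62.0 ± 4.61 TPM in Abcc4-/- and 69.9 ± 2.09 TPM in WT samples. Hk2, the inducible isoform that binds mitochondria, averaged 29.7 ± 2.13 TPM in Abcc4-/- and 33.9 ± 0.580 TPM in WT samples. Hk2 came nearest to a call: it had 106, 112 and 108 CPM in the Abcc4-/- samples, against 122, 115 and 131 CPM in the WT samples. The groups did not overlap, with Abcc4-/- lower, and the log2 fold change was -0.18 (95% interval -0.30 to -0.05, adjusted p = 0.0514). It was called lower without WT replicate 2 (adjusted p = 0.0313) and under 4 other settings (adjusted p 0.0350 to 0.0480). As a share of the TPM of all 3 hexokinases, Hk2 made up 11.7 ± 0.500% in Abcc4-/- and 13.0 ± 0.580% in WT samples (SD, n = 3 each; exact permutation p = 0.1, adjusted 0.2). Hk3 had a log2 fold change of 0.13 (95% interval 0.00 to 0.26) and Hk1 of -0.06 (95% interval -0.18 to 0.07), both with overlapping CPM.

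The 7 enzymes of the upper part of the pathway, which rearrange and split the sugar, gave no call by edgeR or DESeq2 and none at an unadjusted p below 0.05, with a median log2 fold change of 0.04 that was -0.02 on the log2(TPM + 1) scale. Gpi1, which makes fructose 6-phosphate, was the third most abundant of all 32 genes and had 881, 908 and 899 CPM in the Abcc4-/- samples, against 902, 881 and 808 CPM in the WT samples. The groups overlapped, and the interval of its log2 fold change ran from -0.08 to 0.18. The 3 phosphofructokinase genes, whose enzyme commits sugar to glycolysis, differed more in level than in change: Pfkp had 45.7 ± 2.09 TPM in Abcc4-/- and 50.3 ± 3.54 TPM in WT samples, Pfkl 27.6 ± 1.89 TPM in Abcc4-/- and 28.5 ± 1.57 TPM in WT samples and Pfkm 7.56 ± 0.257 TPM in Abcc4-/- and 8.12 ± 0.406 TPM in WT samples. Pfkp and Pfkm lay below WT in all 3 Abcc4-/- samples in CPM, with log2 fold changes of -0.10 (adjusted p = 0.221) and -0.09 (adjusted p = 0.314), while that of Pfkl was 0.04. Pfkp supplied 56.5 ± 0.129% of phosphofructokinase TPM in Abcc4-/- and 57.9 ± 1.80% in WT samples (exact permutation p = 0.4). Of the aldolases, which cleave fructose bisphosphate, Aldoa had 643, 649.6 and 658 CPM in the Abcc4-/- samples, against 634, 609 and 557 CPM in the WT samples. The Abcc4-/- samples were all higher in CPM but not in TPM, and Aldoa was not called (log2 fold change 0.12, 95% interval -0.01 to 0.25, adjusted p = 0.21). Aldoc, the brain-enriched isoform, was the least abundant of the 32 genes at 2.19 ± 0.263 TPM in Abcc4-/- and 2.22 ± 0.359 TPM in WT samples. A second table entry with the symbol Aldoa held only 0.658 ± 0.0739 CPM in Abcc4-/- and 0.666 ± 0.140 CPM in WT samples. Tpi1, which interconverts the 2 triose phosphates, averaged 221 ± 4.54 CPM in Abcc4-/- and 212 ± 14.7 CPM in WT samples, with a log2 fold change of 0.06 (95% interval -0.07 to 0.19).

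In the lower part of the pathway, where ATP is made, all 5 genes had positive log2 fold changes with a median of 0.13, and 1 was called. The median was 0.06 on the log2(TPM + 1) scale, with no call, and 0.07 without WT replicate 3. In TPM the groups of Gapdh, Pkm and Eno1 overlapped. Pgk1 (ENSMUSG00000062070.12, chrX:106187100-106203699, plus strand), phosphoglycerate kinase, the first ATP-producing step, had 432, 414 and 421 CPM in the Abcc4-/- samples, against 384, 369.5 and 340.2 CPM in the WT samples. Every Abcc4-/- sample exceeded every WT sample in CPM and in TPM. Pgk1 rose 1.16-fold (log2 fold change 0.21, 95% interval 0.08 to 0.34, adjusted p = 0.027), and the call was lost in 5 of 6 fits that left out 1 sample, all but that without WT replicate 1 (adjusted p 0.0544 to 0.0885). Gapdh, the most abundant of the 32 genes and often taken as a constant control, had 1922, 1951 and 1954 CPM in the Abcc4-/- samples, against 1901, 1833 and 1664 CPM in the WT samples. All Abcc4-/- samples were higher, with no call (log2 fold change 0.11, 95% interval -0.03 to 0.25, adjusted p = 0.271). Pkm, pyruvate kinase, the second ATP-producing step, had 1436, 1474 and 1479 CPM in the Abcc4-/- samples, against 1412, 1336 and 1201 CPM in the WT samples. Again the groups were apart in CPM, WT replicate 3 being the lowest, and Pkm was not called (log2 fold change 0.15, adjusted p = 0.146). Eno1, enolase, was apart in CPM too and was not called, with 802 ± 14.9 CPM in Abcc4-/- and 732 ± 59.8 CPM in WT samples and a log2 fold change of 0.13 (95% interval -0.01 to 0.27, adjusted p = 0.198). Pgam1, phosphoglycerate mutase, overlapped between groups at 430.0 ± 19.8 CPM in Abcc4-/- and 407 ± 24.8 CPM in WT samples, with a log2 fold change of 0.08 (adjusted p = 0.41). The authors' expected counts of all 5 of these genes held fractions of reads, as they did in at least 1 sample for 13 of the 32 genes (tolerance 0.005), among them Ldha, Ldhb, Gpi1, Tpi1, Bnip3 and Bnip3l in every sample; RSEM splits reads that match more than 1 gene or transcript, so values of these genes may include or lack reads of near-identical copies.

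**Figure D2:**
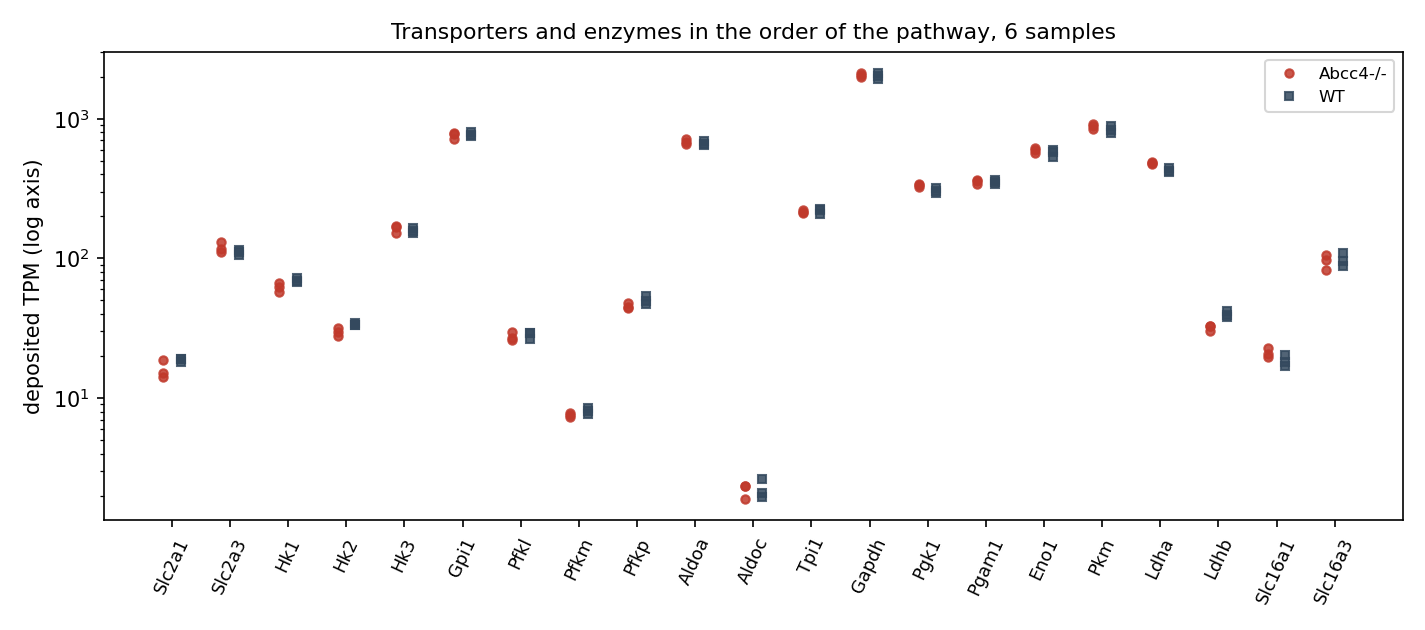
TPM (log axis) of the 4 transporters and 17 enzymes in pathway order, 1 point per sample, with Abcc4-/- left of WT for each gene. Levels span from about the 2.21 TPM mean of Aldoc to the 2047 TPM mean of Gapdh, while the groups of any 1 gene lie close together.

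Lactate dehydrogenase was the step at which both genes were called, in opposite directions. Ldha (ENSMUSG00000063229.15, chr7:46841475-46855627, plus strand) encodes the M subunit, known for turning pyruvate into lactate, and had 506, 483 and 492 CPM in the Abcc4-/- samples, against 419, 438 and 387 CPM in the WT samples. The 3 Abcc4-/- samples all lay above the 3 WT samples. Ldha rose 1.19-fold (log2 fold change 0.25, 95% interval 0.12 to 0.38, adjusted p = 0.0128), a call that was lost without Abcc4-/- replicate 1 (adjusted p = 0.0523) and kept under the 15 other alternatives. Ldhb (ENSMUSG00000030246.11, chr6:142490249-142507957, minus strand) encodes the H subunit, which favours the return of lactate to pyruvate, and had 25.5, 27.2 and 25.6 CPM in the Abcc4-/- samples, against 32.7, 29.9 and 28.1 CPM in the WT samples. The Abcc4-/- samples were all below the WT samples. Ldhb fell to 0.864 times its WT level (log2 fold change -0.21, 95% interval -0.35 to -0.07, adjusted p = 0.0422), and this call was lost in every fit that left out 1 sample except that without WT replicate 3 (adjusted p 0.0720 to 0.166). Of the summed lactate dehydrogenase TPM, Ldhb made up 5.87%, 6.53% and 6.21% in Abcc4-/- samples, against 8.92%, 7.89% and 8.70% in WT samples. Ldha thus dominated in both genotypes, and the Ldhb share was lower in all 3 Abcc4-/- samples by 2.30 percentage points (exact permutation p = 0.1, the smallest possible, adjusted 0.2). The counts of both genes held fractions of reads in every sample, so both values and their share carry the limit on shared reads given above.

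**Figure D3:**
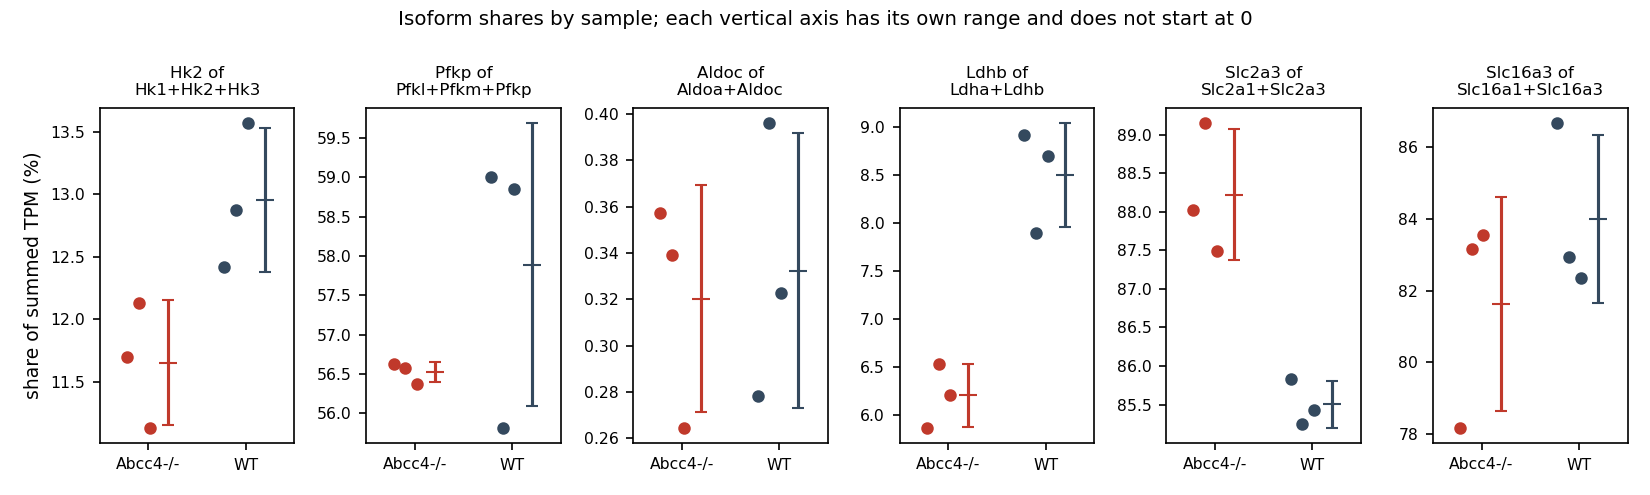
Share of 1 gene in the summed TPM of its step, in percent, for 6 steps, 1 point per sample with the group mean and SD, Abcc4-/- left of WT; the vertical axes do not start at 0. The Ldhb share is 5.87% to 6.53% in Abcc4-/- and 7.89% to 8.92% in WT samples, and the Hk2 and Slc2a3 shares are also apart, whereas the Pfkp, Aldoc and Slc16a3 shares overlap.

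Lactate crosses the membrane through monocarboxylate carriers. Slc16a1 (ENSMUSG00000032902.1, chr3:104638668-104658462, plus strand), the carrier MCT1, had 77.2, 64.4 and 66.4 CPM in the Abcc4-/- samples, against 53.3, 57.8 and 61.8 CPM in the WT samples. Abcc4-/- replicate 1 was the highest sample, and the closest samples of the groups differed by little. Slc16a1 rose 1.20-fold (log2 fold change 0.27, 95% interval 0.10 to 0.44, adjusted p = 0.0379). The call was lost without Abcc4-/- replicate 1, WT replicate 1 or WT replicate 2 (adjusted p 0.0983 to 0.116), and the TPM of the groups overlapped. Slc16a3, the lactate exporter MCT4 of glycolytic cells, was the more abundant carrier and was not called, with 128, 139.6 and 147 CPM in the Abcc4-/- samples, against 149, 131 and 128 CPM in the WT samples (log2 fold change 0.02, 95% interval -0.13 to 0.18). It made up 81.6 ± 2.99% of the TPM of both carriers in Abcc4-/- and 84.0 ± 2.34% in WT samples (SD, n = 3 each; exact permutation p = 0.6).

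The PFK2 genes encode enzymes that make and remove fructose 2,6-bisphosphate, an activator of phosphofructokinase, and 1 of the 3 changed. Pfkfb4 (ENSMUSG00000025648.18, chr9:108991778-109032228, plus strand) had 131, 135 and 144 CPM in the Abcc4-/- samples, against 121, 109 and 99.7 CPM in the WT samples. All Abcc4-/- samples were above all WT samples in CPM, but the groups overlapped in TPM. Pfkfb4 rose 1.25-fold, the largest change of the 32 genes (log2 fold change 0.32, 95% interval 0.17 to 0.47, adjusted p = 0.01), and was called whichever sample was left out; on the 3 TPM scales tried it was not (adjusted p 0.0540 to 0.114). Pfkfb3, the isoform with the strongest kinase activity, had 90.1, 90.9 and 94.3 CPM in the Abcc4-/- samples, against 86.5, 90.1 and 90.6 CPM in the WT samples. Its groups overlapped and its log2 fold change was 0.04 (95% interval -0.06 to 0.15). Pfkfb2, with 8.40 ± 0.850 CPM in Abcc4-/- and 8.67 ± 0.952 CPM in WT samples, had a log2 fold change of -0.04 (95% interval -0.27 to 0.18).

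Among the oxygen-sensing genes, Egln3 was called. Egln3 (ENSMUSG00000035105.5, chr12:54178981-54203860, minus strand), the prolyl hydroxylase PHD3, itself a HIF target, had 21.4, 23.0 and 23.1 CPM in the Abcc4-/- samples, against 25.6, 25.8 and 27.8 CPM in the WT samples. The Abcc4-/- samples were all lower, in CPM and in TPM. Egln3 fell to 0.853 times its WT level (log2 fold change -0.23, 95% interval -0.36 to -0.10, adjusted p = 0.0208), a call lost without Abcc4-/- replicate 1 or 2 or WT replicate 3 (adjusted p 0.0536 to 0.0776). Hif1a, the regulated HIF subunit, had 94.1, 96.3 and 101 CPM in the Abcc4-/- samples, against 92.1, 90.3 and 98.8 CPM in the WT samples, with overlapping groups. Its log2 fold change of 0.05 (95% interval -0.06 to 0.17) concerns the transcript, whereas HIF-1alpha is regulated mainly as a protein, which was not measured. Egln1, the main oxygen sensor PHD2, averaged 49.7 ± 2.75 CPM in Abcc4-/- and 48.4 ± 1.87 CPM in WT samples, with a log2 fold change of 0.04 (95% interval -0.09 to 0.16). Egln2, or PHD1, averaged 51.0 ± 1.35 CPM in Abcc4-/- and 48.5 ± 2.67 CPM in WT samples, with a log2 fold change of 0.07 (95% interval -0.05 to 0.19). The groups of both genes overlapped.

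Of the 4 other hypoxia-responsive genes, Ndrg1 was called. Ndrg1 (ENSMUSG00000005125.13, chr15:66929318-66969640, minus strand), a stress-induced gene widely used as a hypoxia marker, had 112, 116 and 110.1 CPM in the Abcc4-/- samples, against 131, 121 and 129 CPM in the WT samples. All Abcc4-/- samples were lower. Ndrg1 fell to 0.886 times its WT level (log2 fold change -0.17, 95% interval -0.28 to -0.06, adjusted p = 0.0352), and the call was lost in every fit that left out 1 sample except that without WT replicate 2 (adjusted p 0.0614 to 0.124). Bnip3 and Bnip3l, receptors that mark mitochondria for removal, and Pdk1, the kinase that holds pyruvate back from the mitochondria, all overlapped between groups. Bnip3 averaged 21.6 ± 0.268 CPM in Abcc4-/- and 21.3 ± 0.370 CPM in WT samples, with a log2 fold change of 0.02 (95% interval -0.10 to 0.14). Bnip3l averaged 185 ± 4.01 CPM in Abcc4-/- and 182 ± 3.59 CPM in WT samples (interval -0.08 to 0.13) and Pdk1 45.5 ± 1.31 CPM in Abcc4-/- and 44.8 ± 1.35 CPM in WT samples (interval -0.09 to 0.13). The 8 genes of the oxygen-sensing and hypoxia-responsive groups together gave no gene higher and 2 lower. The 24 genes of glycolysis, transport and PFK2 gave 5 higher and 1 lower. Of all genes tested, 8.61% were higher and 8.68% lower. On the log2(TPM + 1) scale only Ldha was called higher, and without Abcc4-/- replicate 1 or 2 none of the 32 genes was called lower. The difference between these counts was not tested.

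**Figure D4:**
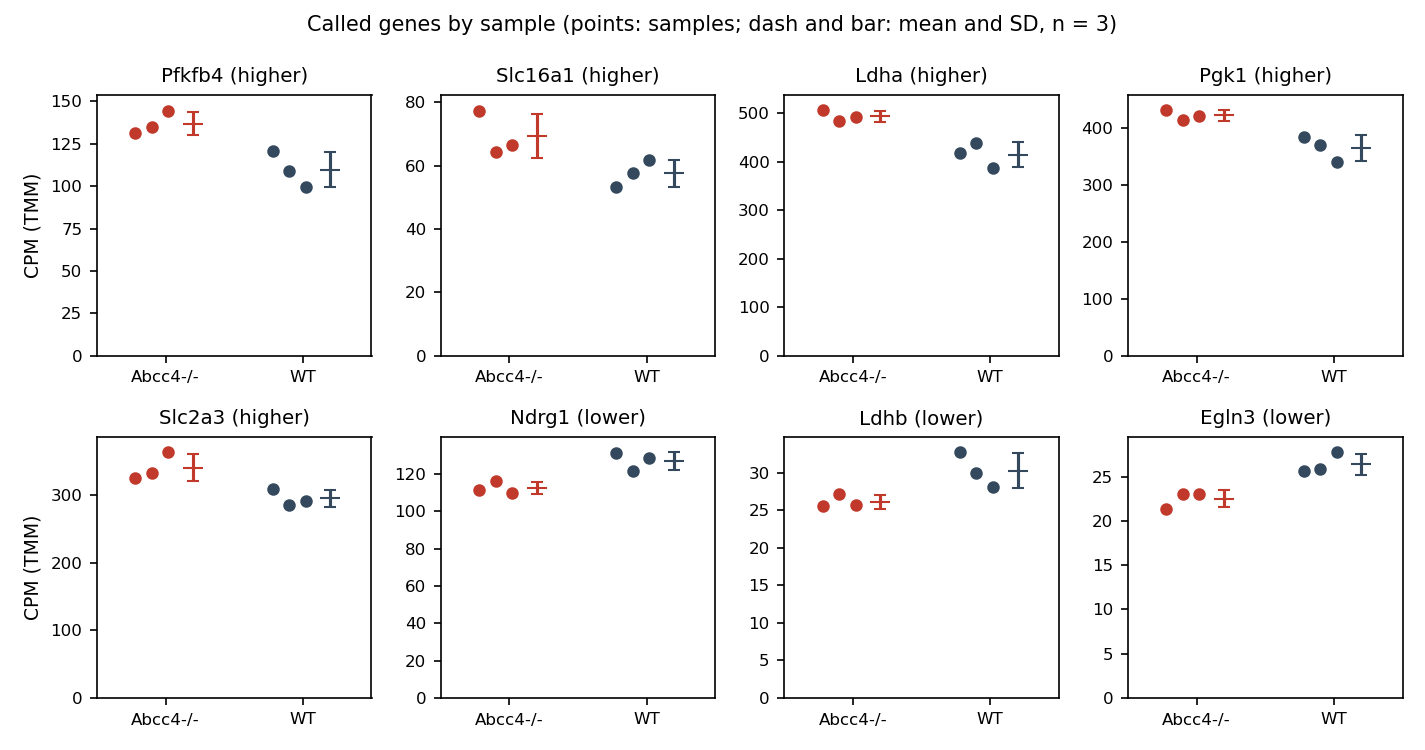
CPM of the 8 called genes in each sample (points) with the group mean and SD, Abcc4-/- left of WT. For each gene the 3 Abcc4-/- points lie all above (5 genes) or all below (3 genes) the WT points.

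Taking the 17 core enzymes as a sum, CPM reached 8082, 8164 and 8197 in the Abcc4-/- samples, against 7928, 7682 and 6999 in the WT samples. WT replicate 3 had the lowest sum, and it was the lowest of the 6 samples for 11 of the 17 enzymes. On the TPM scale the sums were 6525, 6750 and 6970 in Abcc4-/- samples, against 6832, 6577 and 6300 in WT samples, and they overlapped. The enzymes with higher TPM tended to have the more positive fold changes: over the 17 enzymes Spearman's rho between mean TPM and log2 fold change was 0.67, and over all 32 genes 0.56. These correlations are across genes, which share the same 6 libraries and are not independent replicates.

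Beyond the 32 genes, 8 lists of neighbouring pathway genes held 172 genes, of which 147 were tested. Of these, 18 (12.2%) were higher and 13 (8.84%) lower, against 8.61% and 8.68% of all genes tested. Of the 16 tested genes of other glycolysis and gluconeogenesis enzymes, 2 (12.5%) were higher and none lower. Adpgk, a glucokinase that uses ADP, had 580.5, 629 and 584 CPM in the Abcc4-/- samples, against 394, 423 and 359 CPM in the WT samples. Its groups were well apart, and it rose 1.52-fold (log2 fold change 0.61, adjusted p = 0.000157). Pklr, the pyruvate kinase of liver and red cells, rose 2.05-fold at 4.66 ± 0.785 CPM in Abcc4-/- and 2.26 ± 0.789 CPM in WT samples (adjusted p = 0.0314), a call lost without Abcc4-/- replicate 1 or 3 or WT replicate 1 (adjusted p 0.0604 to 0.0887). None of the 13 tested genes of pyruvate entry into mitochondria was called by edgeR or DESeq2, and 1 had an unadjusted p below 0.05 in each. That gene was Pdhb, a pyruvate dehydrogenase subunit, with a log2 fold change of -0.13 (adjusted p = 0.116), which limma called lower on the uncentred TPM scales (adjusted p 0.0410 to 0.0436).

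The pentose phosphate pathway branches from glucose 6-phosphate and makes NADPH. It had 3 of 8 genes (37.5%) higher and none lower, against 8.61% and 8.68% of all genes tested. The median log2 fold change was 0.14, with all 8 values above 0. On the log2(TPM + 1) scale the pathway had 1 gene higher and 6 above 0. G6pdx, its first enzyme, had 407, 396 and 427 CPM in the Abcc4-/- samples, against 336, 313 and 297 CPM in the WT samples. Every Abcc4-/- sample was above every WT sample, and G6pdx rose 1.30-fold (adjusted p = 0.0016). Pgd, the next dehydrogenase, rose 1.18-fold (adjusted p = 0.0317) and the epimerase gene Rpe 1.16-fold (adjusted p = 0.0245), but Pgd lost its call in 5 of the 6 fits without 1 sample (adjusted p 0.0564 to 0.0998), all but that without WT replicate 1, and Rpe without Abcc4-/- replicate 1, WT replicate 2 or WT replicate 3 (adjusted p 0.0512 to 0.0804). Of 17 tested glycogen genes, 6 were higher and 1 was lower, with a median of 0.05, whereas on the log2(TPM + 1) scale 2 were higher and 2 lower, with a median of -0.03. Ppp1r3b, which targets a phosphatase to glycogen, rose 1.53-fold with 39.7 ± 5.04 CPM in Abcc4-/- and 25.9 ± 1.85 CPM in WT samples (adjusted p = 0.00203). Pygl, a glycogen phosphorylase, rose 1.30-fold with 576 ± 19.5 CPM in Abcc4-/- and 445 ± 39.0 CPM in WT samples (adjusted p = 0.00343). Those calls therefore included genes of glycogen storage and of its breakdown. Phka2, a subunit of phosphorylase kinase, fell, with 63.8 ± 1.43 CPM in Abcc4-/- and 77.4 ± 1.30 CPM in WT samples (log2 fold change -0.28, adjusted p = 0.00231). Neutrophil marker sums were higher in the same samples, as given above, and their part in these counts was not tested.

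Among 15 tested genes of other sugar and monocarboxylate carriers and their partners, 1 was higher and 1 lower (6.67% each). Over all genes tested 8.61% were higher and 8.68% lower. Txnip, an inhibitor of glucose uptake that responds to glucose, had 618, 693 and 668 CPM in the Abcc4-/- samples, against 390.3, 434 and 446 CPM in the WT samples. Its groups were far apart, and it rose 1.56-fold (log2 fold change 0.64, adjusted p = 0.000104). Slc16a10, a carrier of aromatic amino acids, fell, with 62.1 ± 1.68 CPM in Abcc4-/- and 70.4 ± 1.69 CPM in WT samples (adjusted p = 0.0248), a call lost without Abcc4-/- replicate 2 or 3 or WT replicate 1 (adjusted p 0.0760 to 0.108). Of 22 tested sugar-responsive and growth regulators, 3 (13.6%) were higher and 1 (4.55%) was lower. Max, the partner of Myc, rose 1.18-fold (adjusted p = 0.00576) and Sesn1, a stress-induced inhibitor of mTORC1, 1.14-fold (adjusted p = 0.0422), while Mycn fell with 4.66 ± 0.212 CPM in Abcc4-/- and 7.08 ± 1.26 CPM in WT samples (adjusted p = 0.00722). The call of Sesn1 was lost without any of the 3 Abcc4-/- samples or WT replicate 1 (adjusted p 0.0654 to 0.178). By limma on the uncentred TPM scales, neither Max (adjusted p 0.133 to 0.135) nor Sesn1 (adjusted p 0.183 to 0.184) was called.

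Other genes of the hypoxia response included some with larger changes, but those named here were picked by the smallest adjusted p in their list. Of 17 tested HIF subunits and regulators, 2 were higher and 2 lower (11.8% each), against 8.61% and 8.68% of all genes tested. Siah2, a ubiquitin ligase that acts on the prolyl hydroxylases, had 22.5, 21.0 and 20.9 CPM in the Abcc4-/- samples, against 38.2, 36.0 and 43.0 CPM in the WT samples. The groups were far apart, and Siah2 fell (log2 fold change -0.87, adjusted p = 1.69e-05). Cited2, which competes with HIF for its coactivators, fell as well, with 113 ± 3.48 CPM in Abcc4-/- and 141 ± 1.65 CPM in WT samples (log2 fold change -0.32, adjusted p = 0.0011). Cul2, a scaffold of the ligase that degrades HIF, rose 1.18-fold (adjusted p = 0.0105), but limma on log2(TPM + 1) did not call it (adjusted p = 0.0517). Of 39 tested HIF targets outside the 32 genes, 1 was higher and 8 (20.5%) were lower, with a median log2 fold change of -0.03. Vegfa, the vascular growth factor, had 20.1, 20.1 and 23.5 CPM in the Abcc4-/- samples, against 33.0, 36.3 and 41.3 CPM in the WT samples. Ddit4, an inhibitor of mTORC1 also induced by other stresses, had 18.2, 16.9 and 18.7 CPM in the Abcc4-/- samples, against 36.0, 42.8 and 53.2 CPM in the WT samples. Hilpda, a lipid droplet protein, averaged 5.37 ± 0.499 CPM in Abcc4-/- and 7.99 ± 0.115 CPM in WT samples. All 3 fell, with log2 fold changes of -0.80, -1.29 and -0.58 (adjusted p = 0.000417, 0.00173 and 0.00173). These 3 were named as the called genes with the smallest adjusted p of the 39. Their size therefore cannot be compared with that of the 32 genes, which were not picked by p-value. Of the 39 genes, 38.5% were apart between groups in CPM, against 36.8% of all genes tested. The immediate early gene sums given above were lower in the same samples, and their part in these values was not tested.

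**Figure D5:**
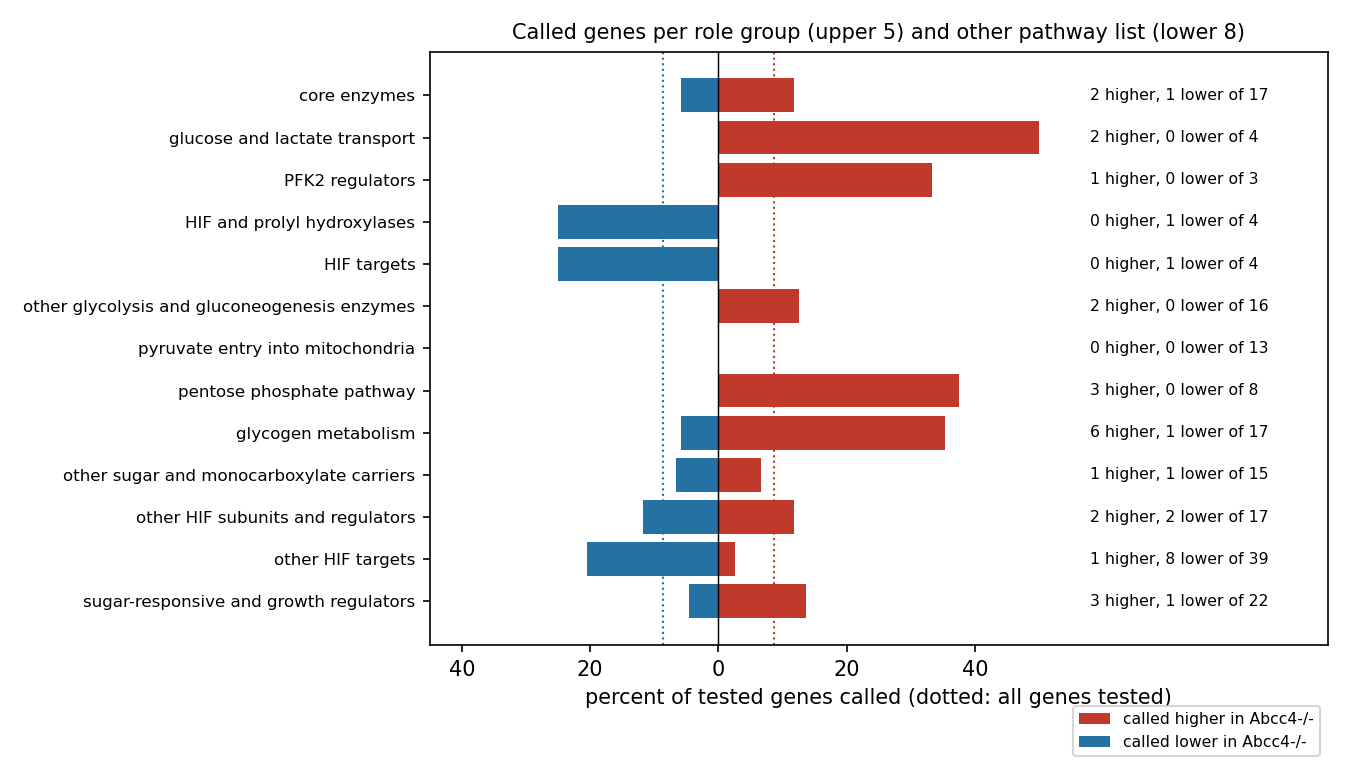
Percent of tested genes called higher and lower in Abcc4-/- samples for the role groups of the 32 genes and for the 8 neighbouring lists, with dotted lines at the shares over all tested genes (8.61% higher, 8.68% lower). The pentose phosphate (37.5%) and glycogen (35.3%) lists have the largest shares called higher among the 8 lists, and the list of other HIF targets the largest share called lower (20.5%).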

How the data were processed

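RNA was measured in 3 Abcc4-/- and 3 WT mouse samples. Per the submitters' processing notes, reads were processed with STAR 2.7 and RSEM 1.3.1 and the mm10 build; for the annotation release and read filters, nothing is given in the sources used here. As deposited by the authors, the files hold RSEM expected counts per gene in one table and TPM per gene in another. Expected counts were rounded to whole numbers, genes were filtered with filterByExpr, and edgeR 4.0.16 in R 4.3.3 (TMM scaling, robust quasi-likelihood test) compared genotypes over all 16493 genes tested, with Benjamini-Hochberg adjustment and a threshold of 0.05. The 95% intervals come from the fitted log2 fold change and its standard error. CPM are TMM-scaled. The deposited TPM were used as given for levels and shares, with no depth of their own, and shares were compared by exact two-sided permutation tests.

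Alternatives were DESeq2 1.42.0, RLE and upper quartile factors, other filters, leaving out each sample, a replicate block and limma 3.58.1 on log2(TPM + 1) and log2(TPM + 0.1); thinning all libraries to 50440239 counts and centring each library of log2(TPM + 1) on its median were added after seeing the data. The 92 spike-in entries were left out of library sizes. All 32 genes are named, and from each neighbouring list at most the 3 called genes with the smallest adjusted p, or the gene with the smallest p where none was called. The genes and lists were chosen with earlier results of these data known. Gene positions come from GENCODE M21 (GRCm38), matched by versioned identifier, and promoters from RefSeq (GRCm38.p6). The series text gives 3 mice per group, but the sample labels name no animals; the p-values rest on the spread among the 3 samples of a group, and this may be technical only. No 2 samples agreed within counting noise. Of the code, only the edgeR fit was tested on simulated counts.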

Additional observations from a re-analysis of the deposited data

How the results depend on the processing

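Thinning all libraries to the smallest total also gave 5 genes higher and 3 lower. Of 512 values (32 genes under 16 alternatives), 428 kept direction and call, 42 lost the call, 6 gained one and 36 changed sign. All 42 losses fell on the 8 called genes. Of the 16 alternatives, Pgk1 lost its call in 8, Slc2a3 and Slc16a1 in 7 each and Ldhb and Ndrg1 in 6 each. Egln3 lost it in 4, Pfkfb4 in 3 and Ldha in 1. Without 1 sample, 1760 to 2415 genes were called in all; of the 32, 2 to 4 were higher and 0 to 3 lower, and of the neighbouring genes 12 to 14 were higher and 10 to 14 lower. On log2(TPM + 1), log2(TPM + 0.1) and centred log2(TPM + 1), 2111, 2154 and 1990 genes were called; of the 32, 1, 1 and 1 were higher and 3, 3 and 0 lower, and of the neighbouring genes 5, 6 and 10 were higher; the cause was not tested. On log2(TPM + 1) and log2(TPM + 0.1) the log2 fold changes of genes not called changed sign, to -0.0222 and -0.0222 for Gpi1, -0.0434 and -0.0448 for Pfkl, -0.0111 and -0.0144 for Aldoc, -0.0207 and -0.0207 for Tpi1, -0.0507 and -0.0512 for Slc16a3, -0.0505 and -0.0520 for Pfkfb3, -0.0897 and -0.0920 for Hif1a, -0.0393 and -0.0412 for Egln1, -0.0597 and -0.0612 for Egln2, -0.0771 and -0.0802 for Bnip3, -0.0368 and -0.0371 for Bnip3l and -0.0999 and -0.104 for Pdk1, and so did medians, to -0.0414 and -0.0430 for all 32 genes, -0.0111 and -0.0144 for the core enzymes, -0.0222 and -0.0222 for the upper enzymes, -0.0646 and -0.0683 for lactate dehydrogenase, -0.0505 and -0.0520 for the PFK2 genes, -0.0747 and -0.0766 for Hif1a and the hydroxylases and -0.0885 and -0.0923 for the other hypoxia-responsive genes. Over all genes tested the medians were -0.0631 on log2(TPM + 1), -0.0814 on log2(TPM + 0.1) and 0.0250 after centring. After centring, the median of the 32 genes was 0.0467 and 22 of them were above 0. There Pfkfb2 was at 0.0119, Hif1a at -0.00155, Pdk1 at -0.0118 and the median of the other hypoxia-responsive genes at -0.000398. The remaining genes and medians listed above had the same sign after centring as in edgeR. After thinning, Aldoc was at -0.0152. Leaving out 1 sample gave -0.0479 to 0.142 for Aldoc, -0.109 to 0.0475 for Pfkfb2, -0.00231 to 0.0745 for Egln1 and -0.0236 to 0.0952 for Slc16a3, -0.0265 to 0.0548 for the lactate dehydrogenase median, and a difference of -0.0392 to 0.0197 percentage points in the Aldoc share, Abcc4-/- minus WT. With a replicate block, 3157 genes were called in all and, of the 32, 4 higher and 4 lower: Slc16a1 lost its call (adjusted p = 0.0849) and Hk2 gained one (adjusted p = 0.0480). The samples share only a number. For each gene tested, the deviation of a sample's log2 CPM from the mean of its own group was taken. Between same-numbered samples of the genotypes these deviations correlated at -0.05, -0.03 and -0.01. For no sample were they most correlated with those of its own number.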
